A study of Mus musculus with 48 samples.

Results

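Kidney RNA from vehicle-treated mice was compared between circadian time (CT) 12 and CT0, which by convention are the start of the subjective night and of the subjective day. The samples were chosen by their labels for treatment and time, which gave 4 samples at CT12 and 4 at CT0, 8 of the 48 samples in the series. The series measured kidney RNA by sequencing in mice given D-alanine (the mirror image of the amino acid L-alanine) or vehicle, at 6 circadian times, and the vehicle arm holds 24 samples. Both groups compared here are kidneys of mice labelled WT that were given vehicle, and they differ in the label by time point alone. The sources used here give no strain, age, sex or lighting, nor the dose or route of the treatment. The series text describes kidneys of different mice and an experiment done 2 times. The values come in 2 tables, each with 2 samples of each group, and the tables were taken to be those 2 runs, which is an inference. Values below are FPKM, that is fragments scaled to gene length and library total. They are listed for replicates 1 to 4 of a group, where replicates 1 and 2 belong to the first table, and replicates 3 and 4 to the second. Replicate numbers follow sample order and pair nothing.

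The 8 libraries held 9827750 to 13671951 fragments. Mitochondrially encoded genes took 38.3% to 46.8% of all FPKM at CT12 and 42.4% to 43.8% at CT0 among libraries of the first table. Libraries of the second had 17.6% to 17.9% at CT12 and 18.1% to 21.8% at CT0. The share was 1.36 percentage points lower at CT12 on average over the tables, in an exact two-sided permutation test within tables with p = 0.556, where 0.0556 is the smallest p that the design allows. Without CT12 replicate 1 the difference was 0.758 points in the other direction. Proximal tubule markers, the defining genes of the main kidney cell type, were all measured, with a summed level of 5161 to 6446 FPKM at CT12 and 4304 to 6400 FPKM at CT0. Of the adrenal markers, Cyp11b1 and Cyp11b2 were listed at 0 in all 8 libraries, and all 6 summed to 0.244 to 1.35 FPKM at CT12 and 0.24 to 0.782 FPKM at CT0. CT12 replicate 1 and CT0 replicate 1 stood apart in markers of the inner medulla, the deepest kidney zone, as described with the cell type markers. Calls lost without both of these libraries are given with the genes, with their lists or with those markers.

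The circadian clock is a loop of transcription factors that runs in nearly every cell, the tubular epithelium of the kidney included. BMAL1, encoded by Arntl, pairs with CLOCK or NPAS2 at E-box sequences and switches on the Period and Cryptochrome genes, whose proteins then repress it. In a side loop REV-ERB receptors repress and ROR receptors activate Arntl through a shared element. The PAR bZIP factors DBP, TEF and HLF activate, and NFIL3 represses, genes with D-box sequences. In kidney these factors are known to time genes of water, salt and drug handling.

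Promoters of the clock genes with the largest called changes are shown first, because the factors named above bind such elements. They are the 3 genes with the largest rise and the 3 with the largest fall at CT12 among the called clock genes that have a window in the RefSeq table (build GRCm38.p6). Each window runs from 250 bases before to 50 bases after a transcription start, 5′ to 3′ on the strand of the gene. Capitals mark matches, on either strand, to CACGTG (E-box), TTANGTAA (D-box) or TAGGTCA (core of the REV-ERB and ROR element). Where a gene has several windows, the one with the most matches is printed. The windows are chr7:45704997-45705296 (+ strand) for Dbp, chr3:95882179-95882478 (− strand) for Ciart, chr11:69098699-69098998 (+ strand) for Per1, chr1:39194022-39194321 (+ strand) for Npas2, chr7:113207261-113207560 (+ strand) for Arntl and chr13:52980990-52981289 (− strand) for Nfil3.
Dbp: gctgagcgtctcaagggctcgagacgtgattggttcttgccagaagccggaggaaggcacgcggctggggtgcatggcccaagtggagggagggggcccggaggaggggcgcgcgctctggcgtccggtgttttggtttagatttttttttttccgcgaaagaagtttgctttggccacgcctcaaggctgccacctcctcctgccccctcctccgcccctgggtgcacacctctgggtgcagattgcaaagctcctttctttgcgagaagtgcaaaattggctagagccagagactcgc
Ciart: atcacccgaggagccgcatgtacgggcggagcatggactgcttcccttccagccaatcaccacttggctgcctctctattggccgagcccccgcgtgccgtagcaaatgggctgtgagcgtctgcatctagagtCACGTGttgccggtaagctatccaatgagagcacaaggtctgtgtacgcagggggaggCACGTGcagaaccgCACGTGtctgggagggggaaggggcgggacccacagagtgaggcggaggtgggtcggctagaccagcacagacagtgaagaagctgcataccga
Per1: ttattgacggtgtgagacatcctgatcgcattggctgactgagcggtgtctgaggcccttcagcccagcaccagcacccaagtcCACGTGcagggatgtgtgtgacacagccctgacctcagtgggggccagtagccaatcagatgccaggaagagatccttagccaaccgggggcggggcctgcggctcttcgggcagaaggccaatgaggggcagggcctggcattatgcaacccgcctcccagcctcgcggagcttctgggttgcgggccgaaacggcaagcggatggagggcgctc
Npas2: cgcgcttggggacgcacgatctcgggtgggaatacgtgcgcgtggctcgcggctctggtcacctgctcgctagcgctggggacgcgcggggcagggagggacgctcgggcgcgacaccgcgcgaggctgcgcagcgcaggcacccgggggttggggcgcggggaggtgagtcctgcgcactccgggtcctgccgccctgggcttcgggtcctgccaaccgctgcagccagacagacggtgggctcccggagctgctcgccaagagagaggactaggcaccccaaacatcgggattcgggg
Arntl: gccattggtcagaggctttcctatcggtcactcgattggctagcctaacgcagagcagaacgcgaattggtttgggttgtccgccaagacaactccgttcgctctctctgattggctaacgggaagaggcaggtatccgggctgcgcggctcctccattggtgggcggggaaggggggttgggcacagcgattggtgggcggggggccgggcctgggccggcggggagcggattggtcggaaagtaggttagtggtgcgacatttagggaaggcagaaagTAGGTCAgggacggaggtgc
Nfil3: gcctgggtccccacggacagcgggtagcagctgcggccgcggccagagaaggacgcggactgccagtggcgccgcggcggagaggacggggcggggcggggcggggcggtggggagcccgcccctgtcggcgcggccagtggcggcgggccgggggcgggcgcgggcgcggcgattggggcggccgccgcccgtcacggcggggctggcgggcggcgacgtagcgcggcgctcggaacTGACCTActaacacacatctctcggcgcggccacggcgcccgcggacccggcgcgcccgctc
The Ciart window held 3 E-boxes, whose first bases lie at -116, -58 and -44 counted from the start at 0, and the Per1 window 1, at -166. The Arntl window held 1 ROR element core at 30, and the Nfil3 window 1 on the other strand at -12. The other windows of Arntl and Per1 held none of the motifs. No letters of these motifs stood in the Dbp and Npas2 windows. Among all 32851 windows of the table, 7.15% held CACGTG, 2.32% TTANGTAA and 2.61% TAGGTCA. Of the 15 called clock genes 13 had a window, and 3 of these held an E-box (Ciart, Per1 and Tef), 1 a D-box (Per3) and 2 a ROR element core (Arntl and Nfil3). These gene counts take a match in any window of a gene, while the percentages are of single windows. A match describes these letters and is not a binding site.

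Across all genes, 386 of 12626 tested genes differed between CT12 and CT0 (3.06%). They were 202 genes higher at CT12 (1.60%) and 184 lower (1.46%), called at an adjusted p under 0.05 by limma on log2(FPKM + 1) with the table as a block. The median change of the higher genes was 0.64 on this log2 scale and that of the lower genes -0.61, against -0.036 over all genes tested, of which 58.1% lay below 0 and 41.9% above (48.4% below with median centring). More than 2-fold changes on the FPKM + 1 scale were seen in 32 genes higher and 25 lower. This scale makes the changes of low genes too small. Every called gene had the same direction in both tables. The 4 CT12 values lay wholly above or below the 4 CT0 values in 129 of the higher genes (63.9%) and 124 of the lower genes (67.4%), against 5.18% of all genes tested. The called genes were picked by a test on these libraries, so both shares are a description. Models known by an identifier alone made up 30 of the higher and 13 of the lower genes and are not named. The spread was estimated from all 24 vehicle libraries, and the 8 libraries alone gave 117 calls, 112 of them among the 386. Rescaling without the mitochondrially encoded genes gave 179 higher and 251 lower calls. The count was 144 without CT12 replicate 3, 195 without CT0 replicate 1, 206 without CT12 replicate 4, 222 without CT12 replicate 2, 224 without CT0 replicate 2 and 235 without CT0 replicate 4.

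**Figure D1:**
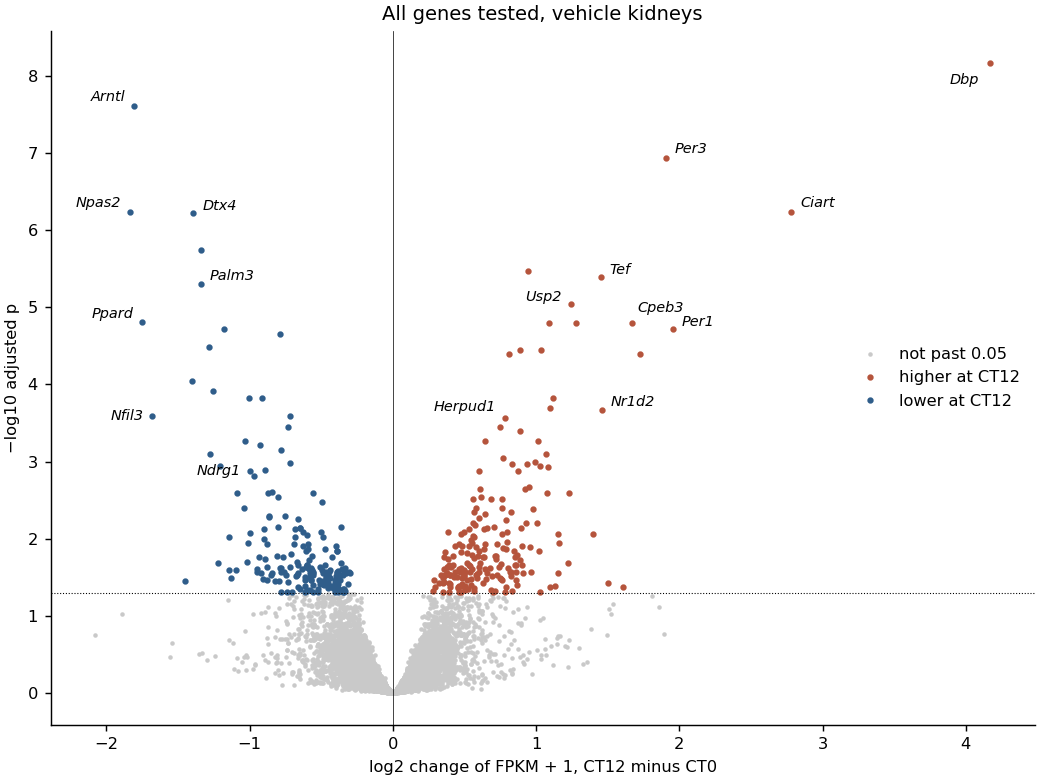
Each point is 1 of the 12626 genes tested in vehicle kidneys, by its log2 change of FPKM + 1 (CT12 minus CT0, x axis) and −log10 of its adjusted p (y axis), with the dotted line at an adjusted p of 0.05. The 202 genes higher at CT12 are red and the 184 lower blue, and Dbp at 4.17 and Ciart at 2.78 lie farthest to the right.

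The genes of the clock's positive limb were all lower at CT12. Arntl, which encodes BMAL1, had 0.371, 0.217, 0.187 and 0.159 FPKM at CT12, against 3.23, 4.01, 3.46 and 2.62 FPKM at CT0. Every CT12 library was far below every CT0 library, and the log2 change was -1.81 ± 0.13 (SE, adjusted p = 2.47e-08). Npas2, the partner of BMAL1 that can take the place of CLOCK, had 0.244, 0.1602, 0.105 and 0.125 FPKM at CT12, against 2.29, 3.496, 3.59 and 3.28 FPKM at CT0. Its groups were as far apart, at -1.84 ± 0.16 (SE, adjusted p = 5.89e-07). Clock itself, the founding partner, differed less, with 1.86, 1.66, 1.56 and 1.74 FPKM at CT12, against 3.48, 2.38, 2.92 and 2.195 FPKM at CT0. Those groups did not overlap either, with a log2 change of -0.46 ± 0.11 (SE, adjusted p = 0.0305). The call of Clock was lost without any 1 of CT12 replicates 2, 3 and 4 and CT0 replicates 1 and 3 (adjusted p up to 0.123). All 3 members of the list were called lower, against 1.46% of all genes. With rescaling to TPM 2 of them were, Clock not among them.

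Most repressors of that limb were higher at CT12. Of 7 tested members 5 were called higher, against 1.60% of all genes, and none lower. Per1, a Period gene that also responds to hormones, had 17.2, 17.8, 15.7 and 14.2 FPKM at CT12, against 3.69, 3.96, 2.79 and 3.36 FPKM at CT0. The lowest CT12 library lay several times above the highest CT0 library, at 1.95 ± 0.23 (SE, adjusted p = 1.93e-05). Per2, the second Period gene, had 25.02, 24.3, 14.2 and 14.8 FPKM at CT12, against 4.99, 11.6, 2.91 and 3.49 FPKM at CT0. The first-table values were the higher ones in both groups, and CT0 replicate 2 came closest to the CT12 values without reaching them, at 1.73 ± 0.21 (SE, adjusted p = 4.03e-05). Per3, the third, had 10.02, 9.44, 9.204 and 7.47 FPKM at CT12, against 2.35, 1.48, 1.62 and 1.31 FPKM at CT0. Its CT12 values were tightly grouped and all above CT0, at 1.91 ± 0.15 (SE, adjusted p = 1.17e-07). Ciart, which encodes the repressor CHRONO and has the 3 E-boxes shown above, had 12.2, 12.2, 12.2 and 8.15 FPKM at CT12, against 1.8002, 0.615, 0.2898 and 0.61995 FPKM at CT0. CT12 replicate 4 was lower than the other CT12 libraries and still far above every CT0 library, at 2.78 ± 0.24 (SE, adjusted p = 5.89e-07). Cry2, a Cryptochrome, had 6.33, 4.297, 5.08 and 5.55 FPKM at CT12, against 3.16, 1.45, 1.87 and 1.38 FPKM at CT0. Its log2 change was 1.12 ± 0.15 (SE, adjusted p = 0.000151), with no overlap.

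Cry1, the other Cryptochrome, did not pass the test and had 2.59, 1.84, 1.44 and 2.04 FPKM at CT12, against 3.69, 3.44, 1.77 and 0.989 FPKM at CT0. The CT0 values fell on either side of the CT12 values, high in the first table and low in the second, at -0.15 ± 0.23 (SE, adjusted p = 0.805). Its vehicle means over the 6 times were 2.47 FPKM at CT0, 0.855 at CT4, 0.738 at CT8, 1.98 at CT12, 3.93 at CT16 and 4.25 at CT20, so that both times compared here lie between its lowest and highest means. Bhlhe40, a basic helix-loop-helix repressor of clock targets, had 9.9001, 10.3, 16.2 and 16.3 FPKM at CT12, against 9.36, 10.1, 11.4 and 10.04 FPKM at CT0, at 0.304 ± 0.15 (SE, adjusted p = 0.31). Its relative Bhlhe41 was under the filter on low values and was not tested. It had 0.952, 0.885, 0.717 and 0.736 FPKM at CT12, against 0.394, 0.261, 0.122 and 0.238 FPKM at CT0, with no overlap.

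Both REV-ERB receptors of the side loop were higher at CT12. Nr1d2, which encodes REV-ERB beta, had 21.8, 25.1, 22.4 and 21.8 FPKM at CT12, against 11.4, 4.68, 7.79 and 7.91 FPKM at CT0. All CT12 values lay near each other and above CT0, at 1.46 ± 0.204 (SE, adjusted p = 0.000214). Nr1d1, which encodes REV-ERB alpha, had 22.3, 19.96, 19.1 and 19.2 FPKM at CT12, against 9.19, 4.02, 17.2 and 9.27 FPKM at CT0. CT0 replicate 3 came close to the CT12 values while CT0 replicate 2 was the lowest, and the log2 change was 1.096 ± 0.29 (SE, adjusted p = 0.0415). Leaving out any 1 of 7 libraries, all but CT0 replicate 3, ended the call of Nr1d1 (adjusted p up to 0.144). Its vehicle means over the day were 9.91 FPKM at CT0, 33.3 at CT4, 39.01 at CT8, 20.2 at CT12, 8.32 at CT16 and 4.22 at CT20, so that CT12 and CT0 lie on the falling and the rising side of its highest mean. Rora, which encodes ROR alpha, had 1.99, 1.901, 2.27 and 2.17 FPKM at CT12, against 2.49, 1.16, 2.65 and 2.42 FPKM at CT0 and was not called, at -0.015 ± 0.13 (SE, adjusted p = 0.969).

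The D-box factors held the gene with the largest change of all. Dbp, an activator at D-boxes and a direct target of BMAL1, had 63.6, 74.4, 76.8 and 70.3 FPKM at CT12, against 4.52, 1.61, 3.34 and 3.14 FPKM at CT0. That is a 17.96-fold difference on the FPKM + 1 scale, at 4.17 ± 0.26 (SE, adjusted p = 6.79e-09). Its vehicle means were 3.15 FPKM at CT0, 24.5 at CT4, 93.3 at CT8, 71.3 at CT12, 17.4 at CT16 and 2.77 at CT20, with CT8 above CT12 and CT0 close to the lowest. Tef, of the same family, had 64.001, 62.2, 72.9 and 63.2 FPKM at CT12, against 20.8, 20.8, 28.8 and 23.8 FPKM at CT0, at 1.45 ± 0.15 (SE, adjusted p = 4.07e-06). Hlf, the third family member, had 14.2, 10.9, 16.2 and 15.2 FPKM at CT12, against 5.88, 6.58, 12.6 and 9.11 FPKM at CT0. CT0 replicate 3 exceeded CT12 replicate 2, so the groups overlapped, and the log2 change was 0.703 ± 0.14 (SE, adjusted p = 0.00704). Without both libraries of high inner medulla marker level Hlf was not called. Nfil3, the repressor at the same sites, went the other way with 1.25, 1.75, 2.03 and 2.86 FPKM at CT12, against 4.72, 11.2, 6.31 and 13.9 FPKM at CT0. All CT12 libraries were below all CT0 libraries, at -1.68 ± 0.24 (SE, adjusted p = 0.000256).

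**Figure D2:**
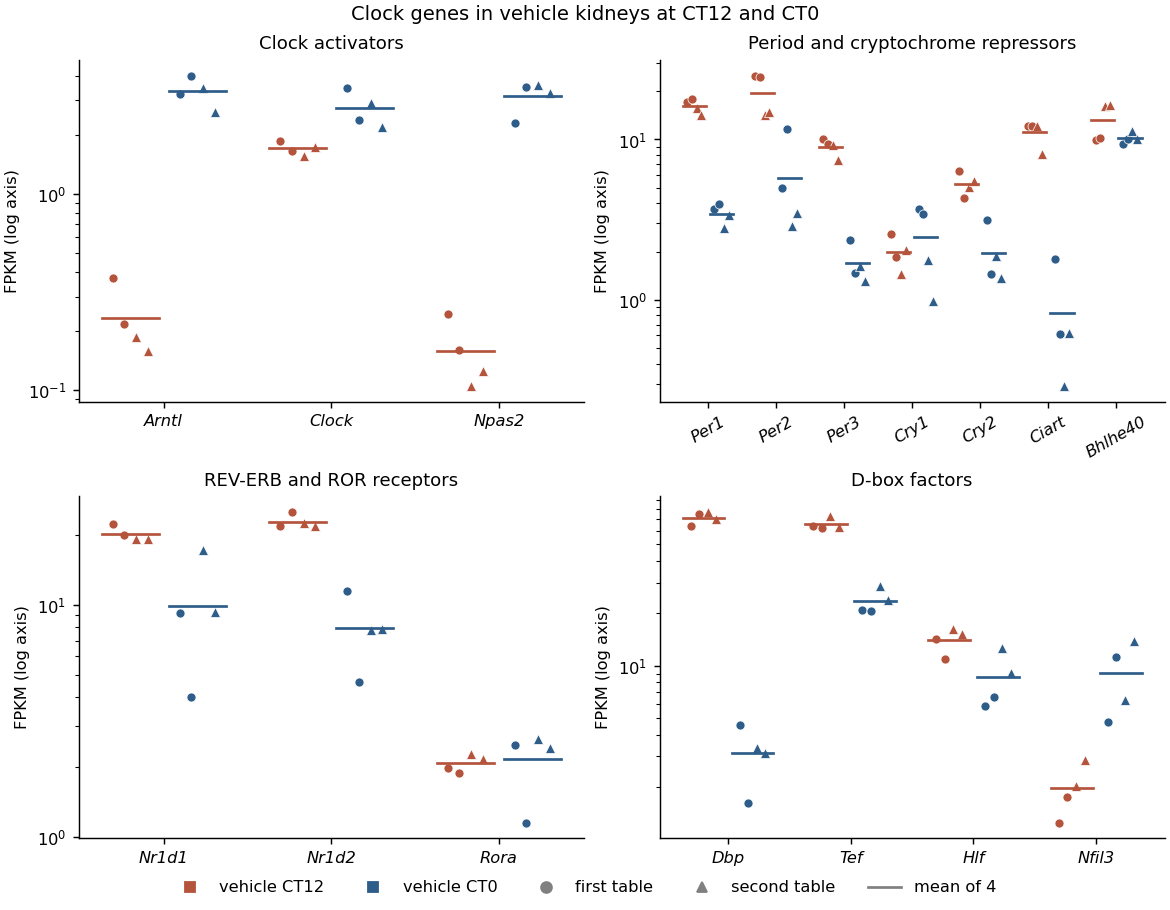
FPKM on a log axis of the clock genes described here, by list, in each vehicle library, with CT12 (red) left of CT0 (blue), circles for the first table, triangles for the second and lines at the means of 4. Arntl, Npas2 and Nfil3 lie lower at CT12, Dbp, Tef, Ciart and the Period genes lie higher, and Hlf, Cry1, Bhlhe40 and Rora overlap.

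With each table alone, where 2 libraries stand against 2, fewer clock genes passed. The first table called 2 of the 3 activators, 2 of the 7 repressors and 2 of the 4 D-box factors, against 44 calls over all genes. The second table called 2, 5 and 2, against 58 calls over all genes. Arntl, Npas2, Per3, Ciart, Dbp and Tef kept their call in each table alone and under all 26 alternatives. Per1, Per2, Cry2 and Nr1d2 lost theirs in the first table alone. Clock, Nr1d1, Hlf and Nfil3 were called in neither table alone.

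Of the genes known to follow the clock in other tissues, 19 were tested. Of these, 7 were called higher and 5 lower at CT12, against 1.60% and 1.46% of all genes. The median change of the 19 was -0.050. Usp2, a ubiquitin-specific protease, had 37.6, 38.95, 42.7 and 39.1 FPKM at CT12, against 12.3, 16.3, 19.6 and 17.2 FPKM at CT0. All CT12 libraries stood above all CT0 libraries, at 1.24 ± 0.13 (SE, adjusted p = 9.12e-06). Wee1, the kinase that holds back entry into mitosis, had 3.69, 3.73, 4.81 and 5.12 FPKM at CT12, against 1.46, 1.11, 2.06 and 1.43 FPKM at CT0, again without overlap, at 1.09 ± 0.12 (SE, adjusted p = 1.59e-05). Cdkn1a, which encodes the cell cycle inhibitor p21, had 1.86, 1.38, 1.63 and 0.652 FPKM at CT12, against 6.27, 5.76, 4.13 and 4.73 FPKM at CT0, and its groups were apart in the other direction, at -1.402 ± 0.18 (SE, adjusted p = 8.95e-05). These were the 2 called genes among 8 tested cell cycle genes, against 3.06% of all genes. Dtx4, an E3 ubiquitin ligase of the Deltex family, had 1.55, 1.26, 1.18 and 1.66 FPKM at CT12, against 4.54, 6.81, 5.17 and 4.95 FPKM at CT0, at -1.39 ± 0.12 (SE, adjusted p = 6.06e-07). Ypel2, a member of the Yippee-like family, had 2.84, 2.197, 2.96 and 3.24 FPKM at CT12, against 8.94, 6.35, 8.25 and 7.02 FPKM at CT0, at -1.18 ± 0.14 (SE, adjusted p = 1.91e-05). Both were lower in every CT12 library than in any CT0 library.

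The other genes among the 10 largest changes in each direction had varied roles. Cpeb3, an RNA-binding protein that controls translation, had 21.8, 23.98, 21.6 and 18.8 FPKM at CT12, against 5.52, 6.95, 5.64 and 6.21 FPKM at CT0, with CT12 wholly above CT0, at 1.67 ± 0.19 (SE, adjusted p = 1.59e-05). Ppard, the nuclear receptor PPAR delta, had 3.56, 2.797, 2.71 and 3.19 FPKM at CT12, against 8.701, 18.3, 12.8 and 12.3 FPKM at CT0. CT0 values were spread over a 2-fold range and all lay above CT12, at -1.75 ± 0.196 (SE, adjusted p = 1.55e-05). Palm3, of the paralemmin family of membrane proteins, had 4.99, 3.98, 4.14 and 4.49 FPKM at CT12, against 12.9, 14.2, 11.8 and 11.9 FPKM at CT0, at -1.34 ± 0.14 (SE, adjusted p = 4.99e-06). Slc16a1, the monocarboxylate transporter MCT1, had 2.97, 1.93, 3.65 and 2.49 FPKM at CT12, against 8.07, 5.999, 11.4 and 7.33 FPKM at CT0, and its groups were also apart, at -1.28 ± 0.19996 (SE, adjusted p = 0.000785). Avpr1a, the V1a vasopressin receptor, had 1.15, 0.934, 0.902 and 0.9901 FPKM at CT12, against 3.58, 4.44, 3.53 and 3.86 FPKM at CT0, at -1.28 ± 0.15 (SE, adjusted p = 3.22e-05). It was the 1 called gene of 15 in the list of aquaporin, vasopressin and urea genes, against 3.06% of all genes. Avpr2, the V2 receptor of the collecting duct, had 18.8, 8.74, 7.44 and 10.6 FPKM at CT12, against 33.8, 18.7, 10.3 and 10.5 FPKM at CT0, at -0.56 ± 0.302 (SE, adjusted p = 0.368). The CT12 and CT0 replicates 1 were the highest for Avpr2 in their groups.

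Short RNA genes made up the rest of those changes. Mirlet7c-2, a let-7 microRNA locus of 95 bases, had 12.3, 5.05, 12.7 and 4.49 FPKM at CT12, against 2.14, 0, 2.59 and 5.27 FPKM at CT0, with overlap, at 1.61 ± 0.42 (SE, adjusted p = 0.0415). Snord4a, a small nucleolar RNA of 71 bases, had 3.81, 8.11, 7.07 and 6.01 FPKM at CT12, against 1.43, 2.06, 1.15 and 1.41 FPKM at CT0, at 1.5003 ± 0.39 (SE, adjusted p = 0.037). Snora69, of the other class of small nucleolar RNAs and 131 bases long, had 0.688, 0.732, 0.766 and 0 FPKM at CT12, against 3.88, 1.68, 2.501 and 5.35 FPKM at CT0, at -1.45 ± 0.37 (SE, adjusted p = 0.0352). At such lengths an FPKM rests on few fragments, and fragments of a longer transcript over the same bases cannot be told apart. Their calls were lost in 17 to 19 of 26 alternatives, among them leaving out any 1 of 6 or 7 of the 8 libraries, with adjusted p up to 0.146.

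Of 20 tested heat shock genes, which encode cytosolic chaperones, all 20 had a change below 0 as deposited and 19 with median centring of the libraries, with a median of -0.29, and 4 were called lower, against -0.036 and 1.46% of all genes. Hsp90aa1, the inducible HSP90, had 64.9, 40.9, 45.5 and 45.4 FPKM at CT12, against 121, 86.1, 82.9 and 85.6 FPKM at CT0. CT0 replicate 1 was the highest of all, CT12 replicate 1 the highest of its group, and the groups did not overlap, at -0.92 ± 0.23 (SE, adjusted p = 0.0278). Stip1, which links HSP70 to HSP90, had 33.5, 25.8, 26.5 and 33.4 FPKM at CT12, against 46.7, 47.5, 39.8 and 46.03 FPKM at CT0, at -0.59 ± 0.13 (SE, adjusted p = 0.019). Chordc1, an HSP90 partner, had 5.395, 6.09, 4.73 and 4.95 FPKM at CT12, against 8.56, 8.38, 5.82 and 8.13 FPKM at CT0, at -0.46 ± 0.11 (SE, adjusted p = 0.0271). CT12 replicate 2 exceeded CT0 replicate 3 there, while the groups of Stip1 were apart. Fkbp4, a co-chaperone of steroid receptors, had 66.95, 53.9, 86.4 and 86.5 FPKM at CT12, against 78.2, 85.99, 112 and 109.6 FPKM at CT0, with overlap, at -0.399 ± 0.0997 (SE, adjusted p = 0.0302). Between 0 and 4 members were called when 1 library was left out. There were 0 without CT12 replicate 3, CT0 replicate 1 or CT0 replicate 2, and 1 without CT12 replicate 2, CT12 replicate 4 or CT0 replicate 4. With the red blood cell marker level as a covariate 0 were called, and 1 without the CT12 and CT0 replicates 1.

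Chaperones of the endoplasmic reticulum went the same way, with 16 of 17 tested genes below 0, against 58.1% of all genes, a median of -0.38 and 2 called lower, against 1.46%. Hsp90b1, which encodes GRP94, had 56.4, 50.8, 52.1 and 58.8 FPKM at CT12, against 79.5, 75.1, 86.7 and 95.5 FPKM at CT0, at -0.61 ± 0.16 (SE, adjusted p = 0.0339). Sdf2l1, a stress-induced resident of this compartment, had 4.72, 3.55, 3.62 and 4.08 FPKM at CT12, against 7.53, 10.03, 12.6 and 13.1 FPKM at CT0, at -1.22 ± 0.28 (SE, adjusted p = 0.0205). Both had CT12 wholly below CT0. The exception was Herpud1, a membrane protein of the degradation pathway of the endoplasmic reticulum, which was called higher with 87.1, 85.3, 113 and 101 FPKM at CT12, against 37.8, 46.4, 80.2 and 66.6 FPKM at CT0. Each table had CT12 above CT0, at 0.78 ± 0.11 (SE, adjusted p = 0.000273). Herpud1 kept its call when any 1 library was left out. Sdf2l1 lost its call without any 1 of CT12 replicates 3 and 4 and CT0 replicate 2 (adjusted p up to 0.0901). The call of Hsp90b1 was lost without any 1 of 6 libraries, all but CT12 replicate 1 and CT0 replicate 3 (adjusted p up to 0.132). None of the 3 was called with the red blood cell marker level as a covariate.

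Cold-inducible RNA-binding genes are known to rise as temperature falls within the body's range. Of 3 tested genes in that list 2 were called higher at CT12, against 1.60% of all genes, and 1 with rescaling to TPM. Cirbp had 26.4, 21.998, 39.2 and 36.3 FPKM at CT12, against 16.8, 13.1, 28.2 and 16.8 FPKM at CT0. Within each table the CT12 libraries lay above the CT0 libraries, while across tables they overlapped, at 0.71 ± 0.16 (SE, adjusted p = 0.0169). Rbm3 had 14.9, 12.6, 12.9 and 13.98 FPKM at CT12, against 7.32, 5.48, 11.3 and 11.8 FPKM at CT0, wholly apart, at 0.602 ± 0.15 (SE, adjusted p = 0.0271). The change of Rbm3 was smaller in the second table, with an unadjusted p of 0.00254 for the difference between tables, which missed the threshold after adjustment (adjusted p = 0.621, limma). Leaving out any 1 of CT12 replicates 3 and 4 and CT0 replicates 2 and 4 ended the call of Cirbp (adjusted p up to 0.0812). Rbm3 lost its call without any 1 of CT12 replicates 1 and 2 and CT0 replicates 1 and 2 (adjusted p up to 0.101). The third gene of the list, Srsf5, a splicing factor, was not called. Neither Cirbp nor Rbm3 was called with the red blood cell marker level as a covariate or without the CT12 and CT0 replicates 1. Both calls were also lost with the 8 libraries alone, without the table term and in each table alone. Cirbp was not called with all 48 libraries in the fit, and Rbm3 was not with no filter on low values or with rescaling to TPM.

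**Figure D3:**
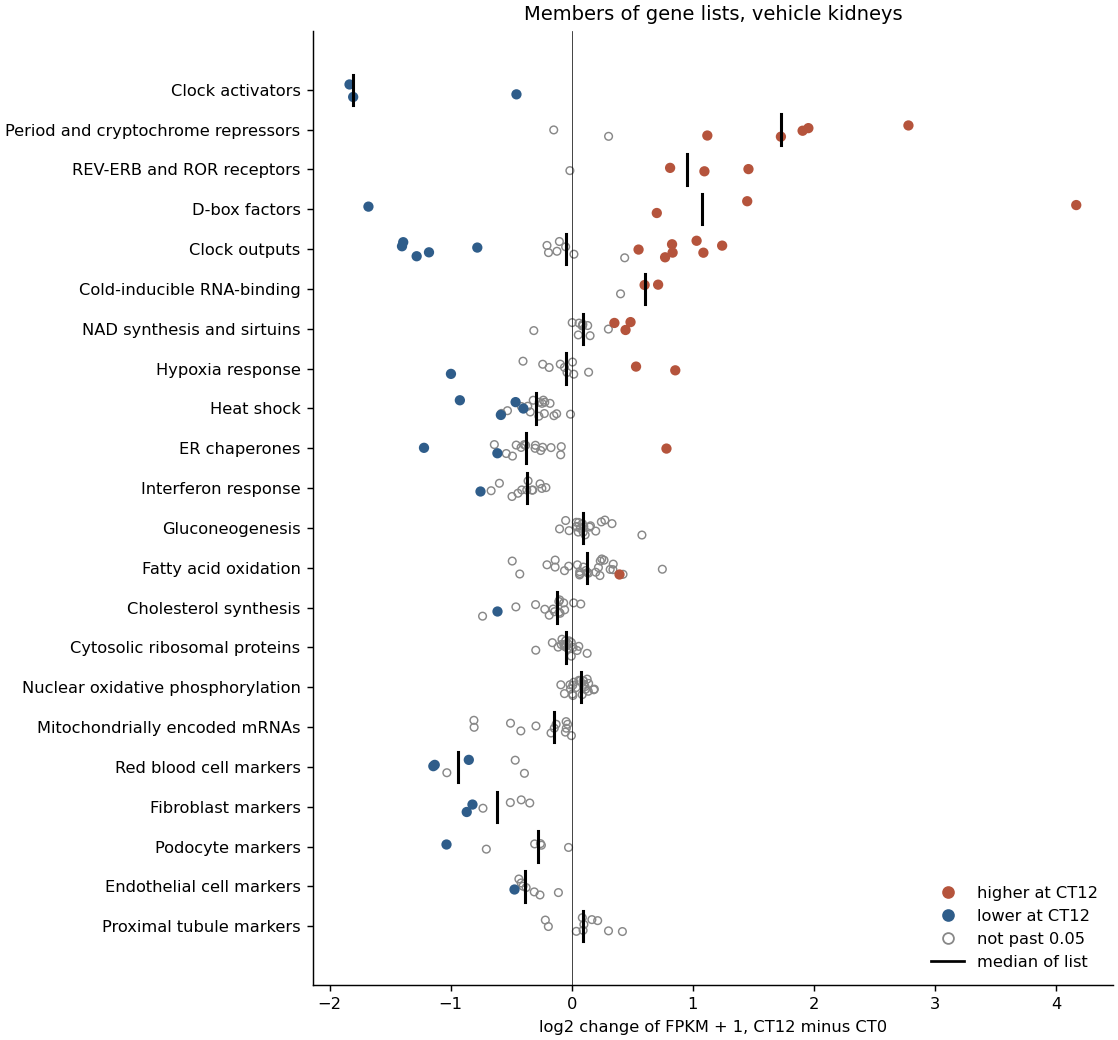
Log2 change of FPKM + 1, CT12 minus CT0, for each tested member of selected lists (rows), filled where called and open where not, with a bar at each list's median. The clock lists reach from -1.84 to 4.17, all 20 heat shock genes lie below 0 (19 with median centring), and the medians of gluconeogenesis, ribosomal proteins and oxidative phosphorylation lie near 0.

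Metabolic lists held few calls. Of 13 tested genes of NAD synthesis and sirtuins 12 lay above 0, against 41.9% of all genes, and 3 were called higher, against 1.60%. With rescaling to TPM 11 of 14 lay above 0 and 1 was called. Nampt, the rate-limiting enzyme of NAD salvage and a known clock target, had 24.2, 23.7, 32.6 and 30.2 FPKM at CT12, against 18.8, 17.002, 25.4 and 25.1 FPKM at CT0, at 0.35 ± 0.089 (SE, adjusted p = 0.032). Naprt, which makes NAD from nicotinic acid, had 31.2, 33.5, 44.3 and 40.6 FPKM at CT12, against 21.3, 27.6, 30.8 and 29.2 FPKM at CT0, at 0.44 ± 0.11 (SE, adjusted p = 0.0309). Sirt3, the mitochondrial deacetylase that uses NAD, had 15.96, 18.4, 26.6 and 22.6 FPKM at CT12, against 10.7, 15.7, 17.6 and 14.3 FPKM at CT0, at 0.49 ± 0.12 (SE, adjusted p = 0.0325). CT12 lay above CT0 within each table for all 3, and across tables Nampt and Sirt3 overlapped. Between 0 and 3 members were called when 1 library was left out, and 0 with the red blood cell marker level as a covariate or without the CT12 and CT0 replicates 1. The call of Nampt was lost without any 1 of 7 libraries, all but CT0 replicate 3 (adjusted p up to 0.101). Leaving out any 1 of CT12 replicates 2, 3 and 4 and CT0 replicates 1 and 4 ended the call of Naprt (adjusted p up to 0.132). Sirt3 lost its call without any 1 of CT12 replicates 2, 3 and 4 and CT0 replicates 1 and 4 (adjusted p up to 0.142). None of the 20 gluconeogenesis genes was called, the smallest p being that of Pck1, the rate-limiting enzyme, with 708, 733, 1201 and 1079 FPKM at CT12, against 372, 444, 1034 and 787 FPKM at CT0, at 0.58 ± 0.202 (SE, adjusted p = 0.136). For Pck1 the difference between tables within a group was larger than that between times.

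In the list of 12 hypoxia-responsive genes the calls went both ways. There were 2 called higher, against 1.60% of all genes, and 1 lower, against 1.46%. Car9, a carbonic anhydrase, had 5.55, 4.54, 8.97 and 5.67 FPKM at CT12, against 2.12, 1.87, 4.73 and 3.39 FPKM at CT0, at 0.86 ± 0.19 (SE, adjusted p = 0.0171). Bnip3, a mitophagy receptor, had 40.6, 46.05, 70.4 and 70.4 FPKM at CT12, against 33.3, 26.5, 49.9 and 46.6 FPKM at CT0, at 0.53 ± 0.11 (SE, adjusted p = 0.0124). Ndrg1, a stress-responsive differentiation gene, had 118, 131, 199.7 and 160.03 FPKM at CT12, against 202, 253, 469.6 and 332 FPKM at CT0, at -0.998 ± 0.17 (SE, adjusted p = 0.00134). Within each table all 3 separated CT12 from CT0, and across tables Car9 and Bnip3 overlapped. The call of Car9 was lost without any 1 of CT12 replicate 3 and CT0 replicates 1 and 2 (adjusted p up to 0.0895). Leaving out CT0 replicate 2 ended the call of Bnip3 (adjusted p = 0.0504). Ndrg1 kept its call when any 1 library was left out, and also with the red blood cell marker level as a covariate, where Car9 and Bnip3 were not called.

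Calls in the other lists were few. The list of the epithelial sodium channel and its regulators held 2 called genes of 14, Prss8 and Tsc22d3. Both were called higher, against 1.60% of all genes. The list of glucocorticoid-responsive genes held 3 called genes of 15, against 3.06% of all genes. Of these Per1 and Tsc22d3 were higher and Cdkn1a lower. Por was the 1 called gene of 17 tested in its list, Eci2 of 27 and Msmo1 of 16. Srxn1 was the 1 called gene of 14, Nop2 of 21 and Rsad2 of 13, against 3.06% of all genes. Prss8, the protease prostasin that activates the epithelial sodium channel, had 131, 137, 213 and 212 FPKM at CT12, against 84.6, 111, 147 and 132 FPKM at CT0, at 0.53 ± 0.11 (SE, adjusted p = 0.00751). Its CT12 values lay above CT0 within each table and overlapped across them. The call of Prss8 held when any 1 library was left out and was lost with the 8 libraries alone, without the table term and in each table alone (adjusted p up to 0.322). The channel subunits Scnn1a, Scnn1b and Scnn1g were not called. Tsc22d3, which encodes the glucocorticoid-induced protein GILZ, had 25.2, 14.2, 14.3 and 14.7 FPKM at CT12, against 16.7, 7.03, 6.905 and 7.404 FPKM at CT0. Replicate 1 was the highest library of both groups, the groups overlapped, and the log2 change was 0.83 ± 0.23 (SE, adjusted p = 0.0478). Tsc22d3 lost its call without any 1 of 6 libraries, all but CT12 replicate 2 and CT0 replicate 1 (adjusted p up to 0.154). Por, the electron donor of cytochrome P450 enzymes, had 76.5, 73.4, 120.4 and 118 FPKM at CT12, against 42.2, 54.2, 92.7 and 79.6 FPKM at CT0, at 0.55 ± 0.12 (SE, adjusted p = 0.0115). The call of Por was lost without CT0 replicate 1 (adjusted p = 0.0507). Eci2, an isomerase of fatty acid oxidation, had 34.5, 32.3, 55.4 and 52.1 FPKM at CT12, against 22.9, 26.1, 42.7 and 41.1 FPKM at CT0, at 0.39 ± 0.102 (SE, adjusted p = 0.0377). Leaving out any 1 of 6 libraries, all but CT12 replicate 2 and CT0 replicate 3, ended the call of Eci2 (adjusted p up to 0.144). Por and Eci2 also separated CT12 from CT0 within each table and overlapped across them. Lower at CT12 were Msmo1 of cholesterol synthesis, with 2.84, 2.64, 2.4997 and 2.87 FPKM at CT12, against 3.23, 4.405, 5.25 and 6.32 FPKM at CT0, at -0.62 ± 0.15 (SE, adjusted p = 0.031), and Srxn1, which repairs oxidised peroxiredoxins, with 13.4, 12.9, 13.1 and 15.3 FPKM at CT12, against 14.7, 15.5, 21.4 and 18.5 FPKM at CT0, at -0.33 ± 0.08 (SE, adjusted p = 0.0278). Nop2, a nucleolar RNA methyltransferase, had 9.17, 8.41, 8.44 and 9.02 FPKM at CT12, against 11.4, 11.9, 10.8 and 11.3 FPKM at CT0, at -0.34 ± 0.083 (SE, adjusted p = 0.0278). Srxn1 overlapped between the times, and Msmo1 and Nop2 did not. Rsad2, the antiviral protein viperin, had 4.41, 3.53, 4.66 and 5.91 FPKM at CT12, against 8.44, 10.7, 7.72 and 7.15 FPKM at CT0, at -0.76 ± 0.18 (SE, adjusted p = 0.0271), and was the 1 called gene among 13 tested interferon-responsive genes, which all lay below 0, against 58.1% of all genes, with a median of -0.37. Msmo1 lost its call without any 1 of CT12 replicates 2, 3 and 4 and CT0 replicates 2 and 4 (adjusted p up to 0.132). The call of Srxn1 was lost without any 1 of CT12 replicates 3 and 4 and CT0 replicates 2, 3 and 4 (adjusted p up to 0.132). Leaving out any 1 of 6 libraries, all but CT12 replicate 1 and CT0 replicate 3, ended the call of Nop2 (adjusted p up to 0.103). Rsad2 lost its call without any 1 of CT12 replicates 1, 2 and 3 and CT0 replicates 1 and 2 (adjusted p up to 0.107). With the red blood cell marker level as a covariate Por was called, and Prss8, Tsc22d3, Eci2, Msmo1, Srxn1, Nop2 and Rsad2 were not.

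No member was called in the lists of immediate early genes (13 tested), amino acid stress (10), sodium chloride and potassium transport (20), glycolysis (14), glucose transport (10), organic ion transport (16), amino acid transport and D-amino acid enzymes (21), cytosolic ribosomal proteins (20), nuclear oxidative phosphorylation (22), mitochondrially encoded mRNAs (13), proteasome (18) and tubular injury (7). Their medians ran from -0.29 in tubular injury to 0.11 in organic ion transport. The gene with the smallest p in the transport list was Slc9a3, the sodium-proton exchanger NHE3, with 12.7, 11.1, 7.94 and 8.805 FPKM at CT12, against 2.57, 4.52, 10.6 and 5.27 FPKM at CT0, at 0.84 ± 0.26 (SE, adjusted p = 0.0896). Its CT0 replicate 3 lay among the CT12 values. The unadjusted p for a difference between the tables was 0.00432, and the adjusted p was 0.66 (limma). Dusp1, an immediate early phosphatase, had 22.3, 16.2, 32.5 and 12.6 FPKM at CT12, against 13.4, 5.86, 14.97 and 9.13 FPKM at CT0, at 0.88 ± 0.29 (SE, adjusted p = 0.122). Slc34a1, the main phosphate transporter of the proximal tubule, had 1899, 2140.0, 2364 and 2251 FPKM at CT12, against 1338, 2084, 2084 and 1602 FPKM at CT0, at 0.304 ± 0.14 (SE, adjusted p = 0.284).

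Markers of several cell types outside the tubule moved with time. In a bulk sample, fewer cells of a type and less RNA per cell cannot be told apart. All 6 red blood cell markers lay below 0, against 58.1% of all genes, 3 were called lower, against 1.46%, and their summed level was 179, 129, 155 and 166 FPKM at CT12, against 322, 353, 246 and 453 FPKM at CT0. The groups did not overlap in that sum. Hba-a1, an alpha globin, had 63.1, 48.6, 56.2 and 54.7 FPKM at CT12, against 122, 136, 84.01 and 168 FPKM at CT0, at -1.14 ± 0.27 (SE, adjusted p = 0.0252). Hbb-bs, an adult beta globin, had 72.7, 48.98, 63.1 and 70.5 FPKM at CT12, against 127, 142, 112 and 187 FPKM at CT0, at -1.13 ± 0.29 (SE, adjusted p = 0.0326), and its neighbour Hbb-bt had 3.72, 2.46, 8.42 and 8.62 FPKM at CT12, against 9.55, 6.35, 10.5 and 16.5 FPKM at CT0, at -0.85 ± 0.21 (SE, adjusted p = 0.029). Globin copies are near-identical, so fragments may be shared among them. The call of Hba-a1 was lost without any 1 of 6 libraries, all but CT12 replicate 1 and CT0 replicate 3 (adjusted p up to 0.0916). Leaving out any 1 of 6 libraries, all but CT12 replicate 1 and CT0 replicate 3, ended the call of Hbb-bs (adjusted p up to 0.113). Hbb-bt lost its call without any 1 of CT12 replicates 1 and 2 and CT0 replicates 1 and 4 (adjusted p up to 0.121). With the mean level of these markers as a covariate the count over all genes was 57, of which 55 were among the 386, and the activators, repressors and D-box factors then held 2 of 3, 5 of 7 and 3 of 4 called genes. Since the marker level itself separates CT12 from CT0, its part in the other results cannot be told apart from time.

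Of 6 tested fibroblast markers 2 were called lower, against 1.46% of all genes, or 1 with median centring or quantile normalization. All 6 lay below 0, against 58.1% of all genes. Their sum was 27.8, 20.4, 19.04 and 24.97 FPKM at CT12, against 45.6, 40.3, 29.4 and 41.6 FPKM at CT0. Col3a1, a fibrillar collagen, had 1.58, 1.85, 1.18 and 1.54 FPKM at CT12, against 3.33, 4.31, 2.81 and 4.13 FPKM at CT0, at -0.87 ± 0.16 (SE, adjusted p = 0.00509). Col1a1, an alpha chain of collagen I, had 2.27, 1.67, 1.79 and 2.301 FPKM at CT12, against 3.53, 5.98, 3.03 and 5.095 FPKM at CT0, at -0.82 ± 0.21 (SE, adjusted p = 0.0348). The call of Col1a1 was lost without any 1 of 6 libraries, all but CT12 replicate 1 and CT0 replicate 3 (adjusted p up to 0.125). Of the podocyte markers 6 of 6 lay below 0, against 58.1% of all genes, and 5 of 6 with median centring or quantile normalization. They summed to 63.4, 63.7, 47.6 and 56.8 FPKM at CT12, against 76.7, 99.1, 66.8 and 73.9 FPKM at CT0, again without overlap. Nphs1, which encodes nephrin of the filtration slit, was not called. Endothelial markers overlapped in their sum, at 169, 75.1, 88.1 and 108 FPKM at CT12, against 202, 126, 110 and 103 FPKM at CT0. All 8 lay below 0, against 58.1% of all genes. Kdr, the VEGF receptor, was called with 3.81, 3.34, 3.25 and 4.01 FPKM at CT12, against 5.69, 5.13, 6.05 and 4.71 FPKM at CT0, at -0.47 ± 0.102 (SE, adjusted p = 0.0136). Leaving out CT12 replicate 3 ended the call of Kdr (adjusted p = 0.0686). With the red blood cell marker level as a covariate none of Col3a1, Col1a1 and Kdr was called.

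Inner medulla markers summed to 224, 51.7, 32.1 and 45.6 FPKM at CT12, against 429, 78.4, 41.8 and 46.2 FPKM at CT0. Replicate 1 of each group thus stood several times above the others, and no marker of the zone was called. Sprr1a, a cornified envelope gene, had 21.6, 4.76, 0 and 4.34 FPKM at CT12, against 44.3, 11.5, 8.23 and 8.94 FPKM at CT0, at -1.56 ± 0.804 (SE, adjusted p = 0.343). Without these 2 libraries 187 genes were called, 81 higher and 106 lower. With the marker level as a covariate 341 were, of which 315 were among the 386. Leaving out these 2 libraries also ended the calls of Clock, Nr1d1, Hsp90b1, Car9, Por, Eci2, Nop2 and Rsad2. Hba-a1, Hbb-bs, Hbb-bt, Col1a1, Kdr, Mirlet7c-2, Snord4a and Snora69 lost their calls then as well. Markers of the proximal tubule, thick ascending limb, distal convoluted tubule, collecting duct principal cells and intercalated cells held no called gene. Neither did markers of smooth muscle, macrophages, lymphocytes and adipocytes. All 4 tested smooth muscle and all 6 tested macrophage markers lay below 0, against 58.1% of all genes, each list with a median of -0.35. All 5 tested inner medulla markers also lay below 0, with a median of -0.43. Of the 10 proximal tubule markers 8 lay above 0. Lyz2, a macrophage gene, had 8.82, 6.14, 9.12 and 9.77 FPKM at CT12, against 9.08, 12.3, 15.2 and 40.4 FPKM at CT0, at -0.89 ± 0.28 (SE, adjusted p = 0.0885). Its highest value was CT0 replicate 4, which also had the highest globin sum.

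**Figure D4:**
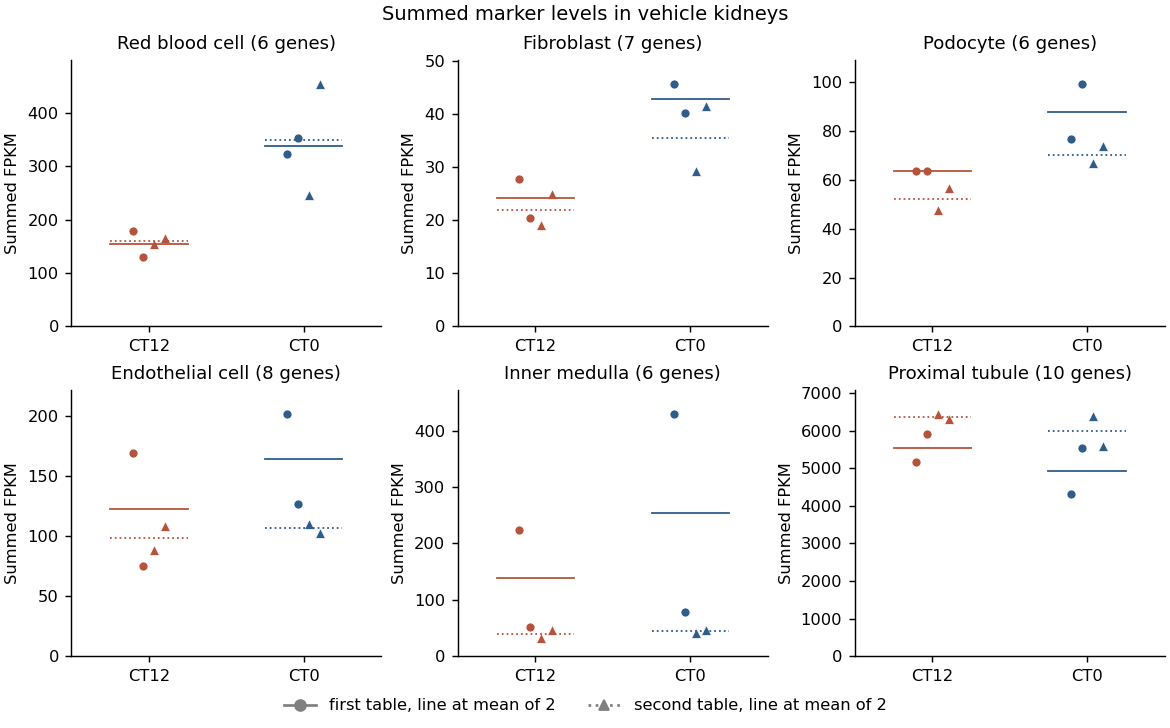
Summed FPKM of the markers of 6 cell types or zones in each vehicle library (y axis from 0), with CT12 left of CT0, circles and solid lines for the first table, triangles and dotted lines for the second, and lines at the mean of 2. Red blood cell, fibroblast and podocyte sums do not overlap between the times, and replicate 1 of both groups is high in inner medulla markers.

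The called genes were set in the whole vehicle day by their means at the 6 times. Of the 202 genes higher at CT12, 122 had their highest vehicle mean at CT12, 65 at CT8 and 13 at CT16, and 145 had their lowest at CT0. Of the 184 lower genes, 109 had their highest mean at CT0 and 55 at CT20, and 125 had their lowest at CT12 and 53 at CT8. Over all genes tested 11.4% had the highest mean at CT12 and 16.5% at CT0. CT12 and CT0 are the times that chose these genes, so the shares are a description. Clock genes were spread among these classes, with the highest mean at CT8 for Dbp and Nr1d1, at CT12 for Tef, Cry2 and Wee1, at CT16 for Per2, and at CT20 for Arntl and Nfil3.

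The same times were then compared in the D-alanine arm, whose libraries the vehicle comparison did not use. There 1764 of the 12626 genes were called (14.0%), 457 higher and 1307 lower. Of the 202 genes higher at CT12 in vehicle, 151 (74.8%) were called higher in D-alanine, and of the 184 lower genes 120 (65.2%) were called lower. These 271 genes are 15.4% of the D-alanine calls. Direction was shared by 200 of the 202 and 182 of the 184, and no gene was called in opposite directions. The median change of the higher genes was 0.66 in D-alanine and 0.64 in vehicle, and that of the lower genes -0.61 in both arms. Of the 1493 genes called in D-alanine alone, 1422 had the same direction in vehicle, with a median size of 0.47 in D-alanine and 0.21 in vehicle. A call in D-alanine and none in vehicle chose these genes, so a larger size in D-alanine follows from the choice. Most D-alanine calls were lower and 58.1% of all genes lay below 0 in vehicle, so the count of shared directions is a description.

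The difference between the arms was tested directly, and 0 genes passed (limma, all 48 libraries). At an unadjusted p under 0.05 there were 731, among them 8 of the 202 higher genes and 11 of the 184 lower genes, and the smallest adjusted p was 0.736. Dbp had a log2 change of 4.76 in D-alanine and 4.17 in vehicle, Arntl -2.05 and -1.81, and Per2 1.66 and 1.73. Cry2, at 0.71 in D-alanine and 1.12 in vehicle, missed the threshold in D-alanine (adjusted p = 0.0561, limma). Nr1d1 had 0.62 in D-alanine and 1.096 in vehicle and missed it too (adjusted p = 0.201). The globins were called in vehicle alone: Hba-a1 had -0.24 in D-alanine (adjusted p = 0.605) and -1.14 in vehicle, a difference of 0.904 (unadjusted p = 0.0433, adjusted p = 0.765, limma). Mirlet7c-2, 1 of the short RNAs, had -0.92 in D-alanine and 1.61 in vehicle (unadjusted p = 0.0118, adjusted p = 0.765, limma). The calls in D-alanine moved with scaling, to 692 higher and 263 lower with median centring, 591 and 339 with quantile normalization and 364 and 2733 with rescaling to TPM, while the median change of all genes in D-alanine was -0.13 as deposited, 0.029 with median centring and -0.25 with TPM. They were 442 without D-alanine CT12 replicate 1, 615 without D-alanine CT0 replicate 2 and 667 without D-alanine CT12 replicate 3. Whether the arms differ in their number of calls was not tested.

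**Figure D5:**
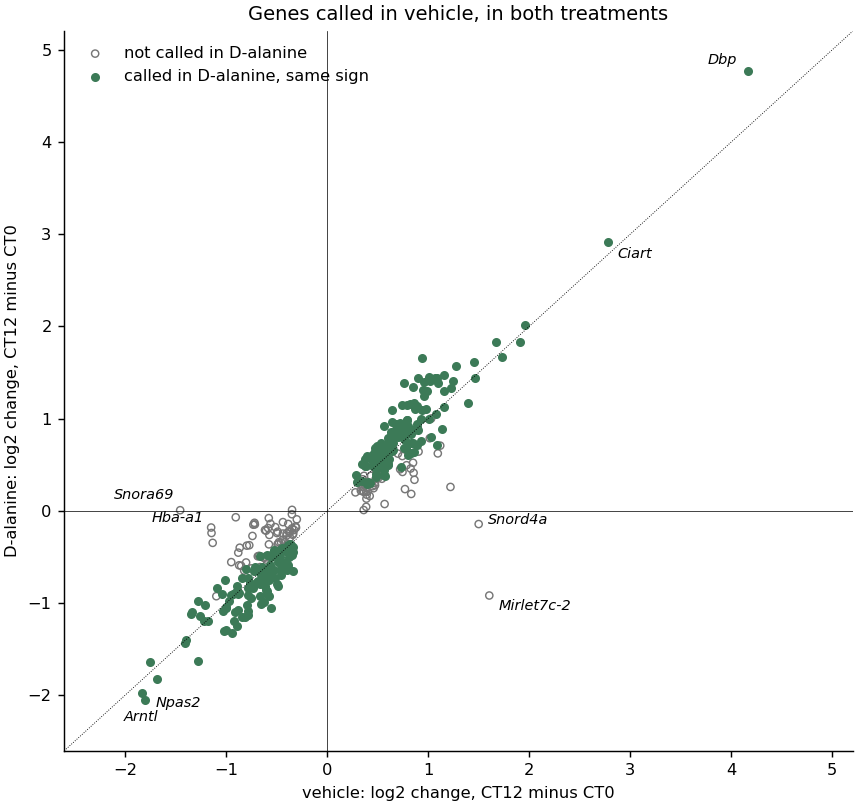
Log2 change of FPKM + 1, CT12 minus CT0, of the 386 genes called in vehicle, in D-alanine (y axis) and in vehicle (x axis), filled for the 271 called with the same sign in D-alanine and open for the rest, with a dotted line where both are equal. Points lie along the line from Arntl and Npas2 at the lower left to Dbp at the upper right, with Mirlet7c-2 and Hba-a1 among those off it.

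The change was also compared between the tables. A difference between the second and the first table was called for 0 genes (limma, table by time), with 765 at an unadjusted p under 0.05 and a smallest adjusted p of 0.0977, for Polr3e. With no filter on low values 13 genes were called, and 1 with limma voom on recovered fragments.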

How the data were processed

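Kidney RNA was made into SMARTER mRNA libraries, per the labels' protocols. The authors deposited FPKM values for 49585 genes in 2 tables. Per the submitters' processing notes they used GRCm38 (mm10). The aligner, the counter, any filter and whether strand was kept: not given in the sources used here. FPKM divides by the library total, so abundant transcripts shift all other values, and near-identical or overlapping genes may share fragments. No value column was left unmapped.

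Depth was recovered from the steps of low FPKM values with exon lengths of GENCODE M21. In the 8 libraries 97.0% to 97.5% of low values in genes with 1 transcript came out whole within 0.05, and 92.0% to 92.9% of all low values did. Replicates differed beyond sampling noise (chi-square per gene of at least 5.92), with correlations of 0.924 to 0.989.

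Genes with a mean log2(FPKM + 1) of at least 1 over the 24 vehicle libraries were kept, which left 12626. They were fitted with limma 3.58.1 in R 4.3.3 (trended empirical Bayes, 6 times plus the table as a block, two-sided, Benjamini-Hochberg over all genes at 0.05). All adjusted p-values come from limma, and a call is an adjusted p under 0.05. Changes given as log2 are differences of log2(FPKM + 1), and for low genes this makes them too small. The D-alanine arm was fitted alone in the same way, and the difference between arms in all 48 libraries. The fit was tested on simulated data. The mitochondrial share was tested by exact permutation within tables (36 arrangements).

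Named genes were the 10 largest called changes in each direction with the same direction in both tables, all members of 4 clock lists, and in each other list the called genes among its 4 smallest p, or the smallest where none was called. Values of 2 genes that the rule chose are not reported here. The gene set named in the closing observations was chosen after its values were seen. The comparison and the lists were chosen with earlier results of these data known. Alternatives were a pseudocount of 0.1, other filters, scalings and models, voom on recovered fragments, each table alone and leaving out each library. Marker levels as covariates and leaving out both libraries of high inner medulla marker level were added after seeing the data.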

Additional observations from a re-analysis of the deposited data

Results flagged for a closer look

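The 84 genes that the naming rule chose were each examined in both groups of 4 libraries (168 groups). In 7 groups 1 library lay far from the other 3 on the log2(FPKM + 1) scale. Chance gives about 1 in 20 groups, so 7 is no more than chance would give. The measure is the gap from that library to its nearest neighbour divided by the range of the group, with 0.829 as the 95% critical value. In Ciart at CT12 it was 0.994, since replicate 4 had 8.15 FPKM beside 12.2 in each of the others. In Tsc22d3 replicate 1 was the high library in both groups, with 25.2 FPKM beside 14.2 to 14.7 at CT12 (0.944) and 16.7 beside 6.91 to 7.40 at CT0 (0.924). In Hsp90aa1 at CT0 it was 0.897, with 121 FPKM in replicate 1 beside 82.9 to 86.1. In Snora69 at CT12 it was 0.920, with replicate 4 listed at 0 and the others at 0.688 to 0.766 FPKM. In Rora at CT0 it was 0.876, with 1.16 FPKM in replicate 2 beside 2.42 to 2.65. In Chordc1 at CT0 it was 0.863, with 5.82 FPKM in replicate 3 beside 8.13 to 8.56. The causes were not tested.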

How the results depend on the processing

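No paired analysis was possible because replicate numbers follow sample order. Counts of genes called moved by over 1.5 times from the 386 (202 higher and 184 lower) under these settings. No filter on low values gave 233 (133 and 100), the 8 libraries alone 117 (69 and 48), no table term 120 (66 and 54), the first table alone 44 (30 and 14) and the second 58 (32 and 26). The red blood cell covariate gave 57 (30 and 27), and leaving out both libraries of high inner medulla marker level 187 (81 and 106). Leaving out each library gave 144 to 469 calls, 79 to 281 higher and 65 to 204 lower. Other settings gave 298 to 435 calls, and 41.6% (without mitochondrially encoded genes) to 60.7% (median centring) of calls were higher, against 52.3% as reported. In D-alanine the 1764 calls became 1056 with no filter, 3097 with TPM, 955 with median centring, 930 with quantile normalization, 372 without the table term, 25 and 116 in the first and second table alone, and 442 to 2292 on leaving out each library. The table difference gave 13 with no filter and 1 with voom, against 0. The mitochondrial share difference of -1.36 points ran from -3.47 to 0.758 on leaving out each library.

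Among the 58 called genes that the naming rule chose, Arntl, Ciart, Cpeb3, Dbp, Dtx4, Npas2, Palm3, Per3, Tef, Usp2, Wee1 and Ypel2 kept their call in all 26 alternatives. One called gene changed sign, Hbb-bs, at 0.048 with the red blood cell covariate. Of genes not called, Fabp4 (log2 change -0.17) turned to 0.036 with the inner medulla covariate and 0.021 with the red blood cell covariate. Cry1 turned to 0.22 in the second table alone, and ran from -0.395 to 0.027 on leaving out each library. Rora, at -0.015, turned to 0.027 with median centring, 0.032 with quantile normalization, 0.10 in the first table alone, 0.012 with voom, 0.046 with the inner medulla covariate, 0.054 without both libraries of high inner medulla marker level, and ran from -0.155 to 0.0898 on leaving out each library. The causes were not tested. For short or low genes an FPKM rests on few fragments, which limits its precision.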

Other observations

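Further genes with large called changes, chosen after their values were seen, belonged to no list. Of 8 tested genes of the N-acetyltransferase 8 family 4 were called higher, against 1.60% of all genes. The other 4, with log2 changes of 0.23 to 0.47, were not called. Among the called members Nat8f3 and Nat8 overlapped between the times, and Nat8f5 and Nat8f6 did not. Nat8f6 averaged 78.0 ± 18.3 FPKM at CT12 and 41.6 ± 16.8 at CT0 (SD, n = 4 each), Nat8f5 69.7 ± 15.2 and 35.7 ± 10.1, and Nat8f3 4.02 ± 1.101 and 1.44 ± 0.873. The family member Nat8 had a log2 change of 0.68 (adjusted p = 0.00305, limma), and these neighbouring, similar genes may share fragments. Rnf24, a RING finger protein, averaged 42.6 ± 6.596 FPKM at CT12 and 15.8 ± 4.07 at CT0, with no overlap. Tsku, the secreted protein tsukushi, averaged 12.5 ± 2.29 and 5.75 ± 2.90 FPKM, and Car14, a membrane-bound carbonic anhydrase, had a log2 change of 1.08 (adjusted p = 0.00251, limma).

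Both mitochondrial ribosomal RNAs were lower at CT12, mt-Rnr1 at a log2 change of -1.01 ± 0.21 (SE, adjusted p = 0.0113, limma) and mt-Rnr2 at -0.95 ± 0.23 (adjusted p = 0.0244), while none of the 13 mitochondrially encoded mRNAs was called. mt-Rnr1 had 1165, 1297, 599 and 732 FPKM at CT12, against 2202, 3365, 855 and 1726 FPKM at CT0, apart within each table and overlapping across them. Clpx, the unfoldase of the mitochondrial protease ClpXP, averaged 18.8 ± 3.71 FPKM at CT12 and 40.4 ± 16.8 at CT0 (log2 change -1.001, adjusted p = 0.000151, limma).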
